A study of Mus musculus with 26 samples.

Results

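The T cell receptor complex and its first signalling steps were followed here in S49, a mouse T lymphoma line, through 10 genes: the CD3 and zeta chains Cd3g, Cd3d, Cd3e and Cd247, the transmembrane adaptors Trat1 and Lat, the cytosolic adaptor Lcp2, the tyrosine kinases Zap70 and Lck, and the kinase Prkcq. Members were the array probe sets that the platform annotation gives to these symbols alone. That rule found 14 probe sets for 9 of the 10 genes, among 22626 probe sets without controls, and 12 of the 14 passed the filter on dim signals and were tested. The annotation used lists no probe set under Lck, which was not analysed here. The rule used no measured value, although the 10 genes were chosen with earlier results of these data known.

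RNA came from wild-type (WT) S49 cells, which die when cyclic AMP is raised, and from D- (deathless) S49 cells, a variant line that survives it. The groups were untreated WT, WT treated for 2, 6 or 24 h, untreated D-, and D- treated for 2, 6 or 24 h, with 4 arrays in each untreated group and 3 in each treated group, 26 in all. The agent was 8-CPT-cAMP, a membrane-permeable analogue of cyclic AMP, labelled at 100 mM, which may be an error of unit. Each line is a single established suspension line, so a difference between the lines is a difference between 2 cell lines and not between 2 alleles. The labels call the replicates biological without describing separate cultures, so a p-value below rests on the spread among samples that may be technical repeats. The comparisons ask how the receptor genes differ between the lines before treatment, how each line responds, and whether the responses differ.

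An alpha-beta receptor recognises peptide on a major histocompatibility molecule but has almost no cytoplasmic tail, and it signals through the CD3 chains and the zeta chain, whose tails carry tyrosine activation motifs. Lck phosphorylates those motifs, Zap70 binds the phosphorylated tails and in turn phosphorylates the adaptors encoded by Lat and Lcp2, and Prkcq carries the signal towards NF-kappa-B. Protein kinase A, the main target of cyclic AMP, is known to dampen this pathway close to the membrane, in part through the kinase Csk.

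Promoter sequences are shown for 6 genes, so that the cyclic AMP response element and lineage motifs can be seen in place, or their absence. Cd247, Trat1, Lcp2 and Prkcq had the widest range of group means, and Zap70 and Cd3e were chosen after their promoters were found to hold the response element or its core. All 9 measured genes matched a RefSeq promoter entry (GRCm38.p6, 250 bases before to 50 after a gene start), and the 9 genes had 11 promoters because Zap70 has 3. Capitals mark the cyclic AMP response element, whose full form TGACGTCA and shorter core TGACG are bound by CREB factors. They also mark the ETS core GGAAGT, a motif of lineage factors. The third motif in capitals is that of GATA factors, spelled AGATAA. A variant of it, spelled TGATAA, was searched as well. Each motif was searched on both strands, so capitals can show its reverse complement. The windows are chr1:36761548-36761847 for the first Zap70 promoter, chr9:45009562-45009861 for Cd3e, chr1:165788431-165788730 for Cd247, chr16:48772013-48772312 for Trat1, chr11:34046678-34046977 for Lcp2 and chr2:11172132-11172431 for Prkcq. Cd3e and Trat1 lie on the minus strand, and each sequence is given 5′ to 3′ on its gene's strand.
Zap70: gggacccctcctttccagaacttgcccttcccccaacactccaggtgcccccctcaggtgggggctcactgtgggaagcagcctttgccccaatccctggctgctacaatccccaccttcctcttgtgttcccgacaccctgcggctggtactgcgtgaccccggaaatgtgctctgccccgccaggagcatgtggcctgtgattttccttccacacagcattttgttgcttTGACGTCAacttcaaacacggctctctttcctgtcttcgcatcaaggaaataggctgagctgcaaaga
Cd3e: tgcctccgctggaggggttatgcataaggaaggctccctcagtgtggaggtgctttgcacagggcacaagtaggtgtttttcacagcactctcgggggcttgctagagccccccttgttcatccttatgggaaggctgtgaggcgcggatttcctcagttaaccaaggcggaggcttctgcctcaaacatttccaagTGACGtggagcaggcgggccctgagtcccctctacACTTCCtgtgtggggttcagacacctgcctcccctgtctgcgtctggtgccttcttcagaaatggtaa
Cd247: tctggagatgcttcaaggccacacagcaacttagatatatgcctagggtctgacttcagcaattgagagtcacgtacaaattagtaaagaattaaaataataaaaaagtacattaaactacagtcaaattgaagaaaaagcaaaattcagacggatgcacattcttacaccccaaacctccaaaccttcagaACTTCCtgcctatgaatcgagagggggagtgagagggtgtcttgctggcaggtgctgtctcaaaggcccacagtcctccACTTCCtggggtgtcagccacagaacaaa
Trat1: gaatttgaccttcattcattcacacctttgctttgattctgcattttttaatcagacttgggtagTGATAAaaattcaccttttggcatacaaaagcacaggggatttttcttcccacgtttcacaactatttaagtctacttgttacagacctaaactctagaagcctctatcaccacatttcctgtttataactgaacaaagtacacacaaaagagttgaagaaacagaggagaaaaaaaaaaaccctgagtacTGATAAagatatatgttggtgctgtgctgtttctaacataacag
Lcp2: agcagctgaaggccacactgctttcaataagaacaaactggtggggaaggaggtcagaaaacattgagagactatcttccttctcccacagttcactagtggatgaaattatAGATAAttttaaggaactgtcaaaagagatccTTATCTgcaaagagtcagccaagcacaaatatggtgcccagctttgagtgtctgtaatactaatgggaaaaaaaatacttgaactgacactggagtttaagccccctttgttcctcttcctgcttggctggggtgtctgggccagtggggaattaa
Prkcq: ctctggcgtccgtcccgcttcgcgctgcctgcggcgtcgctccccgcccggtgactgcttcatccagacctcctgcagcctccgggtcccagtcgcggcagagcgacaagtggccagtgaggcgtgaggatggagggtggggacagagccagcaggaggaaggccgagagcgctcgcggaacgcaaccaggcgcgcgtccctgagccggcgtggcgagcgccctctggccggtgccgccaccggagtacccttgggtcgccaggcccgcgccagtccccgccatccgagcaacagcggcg
The full element TGACGTCA stood in the first Zap70 promoter, beginning 18 bases before the start, and in no other of the 11 promoters, against 1.79% of the 32851 promoters of the same length. The shorter TGACG, which the full element contains, matched 2 of the 9 genes, Zap70 and Cd3e (20.8% of all promoters). GGAAGT matched Cd3d, Cd3e, Cd247 and Zap70 (23.8%), in Zap70 in the second promoter, which is not printed, and the GATA motifs matched Cd3g, Trat1 and Lcp2 (18.6%). The Prkcq and Lat promoters held no match to the capitalised motifs. RUNX letters TGTGGT, which are not capitalised, matched Trat1, Lat and Zap70 (16.8%), and E-box letters CAGGTG matched Cd3g, Cd3d, Cd3e, Cd247 and Zap70 (20.2%). These matches describe letters in a window and not bound sites. Cd3g, Cd3d and Cd3e are neighbouring genes on chromosome 9.

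Values are log2 of the intensities that the authors deposited after GCRMA, a method that equalises the distribution of signal between arrays. A group mean under log2 5 (intensity 32) was treated as a bound, and a call means an adjusted p under 0.05 in limma over 12724 probe sets, with the brightest probe set standing for each of 7435 genes. Pearson's r for pairs of arrays within a group, over the tested probe sets, ran from 0.972 to 0.995. The arrays also split into 2 clusters by the first axis of their deviations from group means, which holds 38.8% of the variance within groups. The split is not in the labels and was drawn from these same values. A fit with the cluster as a block, or within 1 cluster, can therefore give p-values that are too small. Cluster 1 held 10 arrays, namely replicate 1 from all 8 groups with replicate 2 from untreated WT and untreated D-, and cluster 2 held the other 16. The difference between 3' and 5' Gapdh probes, a sign of RNA quality, averaged -0.15 ± 0.06 on the 10 arrays of cluster 1, and on the 16 of cluster 2 it averaged 0.02 ± 0.09 (SD). Cd3g, Cd3e and Trat1 were lower on the cluster 1 arrays in each of the 8 groups. Cluster 1 holds 1 treated array per group, so a p-value within it assumes that this lone array varies like the untreated arrays. Of the 35 calls of members described below, fits to cluster 1 alone, with 2 residual degrees of freedom, ended 19, and fits to cluster 2 alone ended 5. Values within a cluster stand beside those 5 and beside others that a cluster moved. Of 10 T lineage markers on the array, 8 or 9 had a mean at or above log2 5 in each group, with Thy1 between 11.37 and 12.98 and Cd5 near 3 throughout. None of 3 NK cell, at most 1 of 7 B cell, 1 of 4 stromal, 1 of 3 erythroid and 3 of 8 myeloid markers reached that level in any group.

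**Figure D1:**
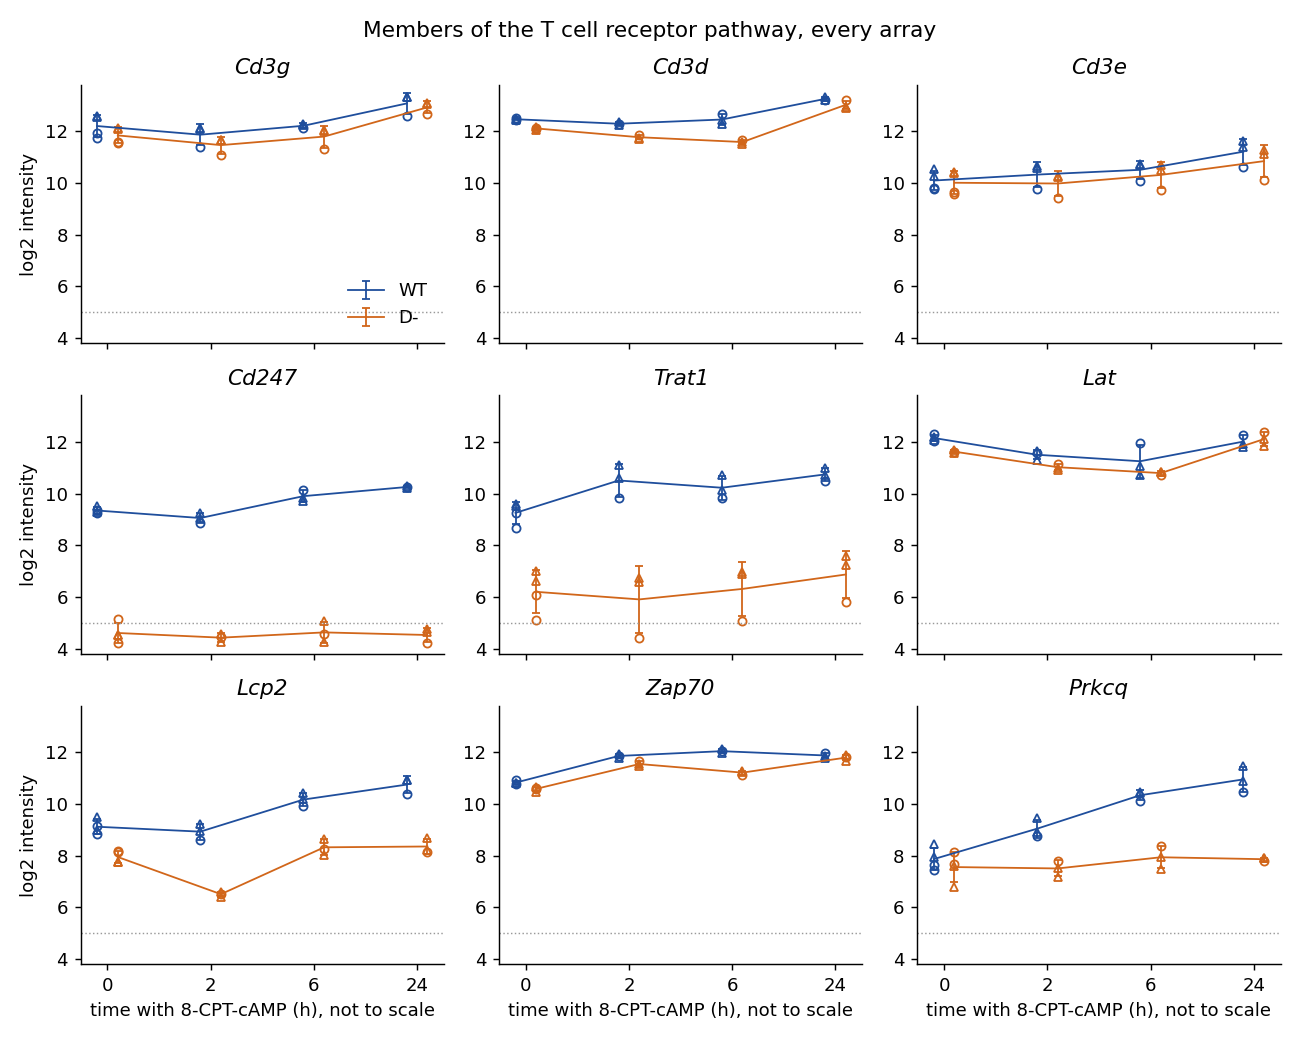
Log2 intensity (vertical axis) of the brightest probe set of each of the 9 measured genes at 0, 2, 6 and 24 h of 8-CPT-cAMP (horizontal axis, not to scale), with WT in blue and D- in orange. Each circle (cluster 1) or triangle (cluster 2) is 1 array, lines join group means, bars are the SD, and the dotted line is log2 5, which the D- means of Cd247 stay under while every WT array lies at 8.87 or above.

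Before treatment, 4 of the 9 measured genes differed between the lines and all 4 were lower in D-: Cd247, Trat1, Lcp2 and Cd3d. Over all genes tested, 5% were called in this comparison, 1.91% higher and 3.09% lower in D-. The median difference of D- from WT was -0.36 over the 9 genes and 0.00 over all genes. In this bulk RNA, fewer cells expressing a gene and less RNA per cell cannot be told apart.

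Cd247 encodes the zeta chain, which carries most of the receptor's activation motifs. On its brightest probe set (1426396_at), untreated WT arrays read 9.37, 9.23, 9.50 and 9.27. Untreated D- arrays read 5.16, 4.20, 4.54 and 4.51. The groups were far apart, and only 1 of the 4 D- arrays was above log2 5. The difference was -4.74 ± 0.18 (SE; limma adjusted p = 3.82e-14), and because the D- mean of 4.60 ± 0.40 (SD, n = 4) is under the floor, the level in WT is given as at least 20.3-fold higher (4.34 on the log2 scale). A second probe set (1452539_a_at) gave 8.19 ± 0.21 in WT and 4.77 ± 0.69 in D- (SD, n = 4 each), a level at least 9.13-fold higher in WT (adjusted p = 6.68e-09). Within cluster 1 the difference of the first probe set was -4.62 and within cluster 2 it was -4.86. Of the 15 arrays on which this probe set reached the floor, 2 were D- arrays, so Cd247 passed the filter on dim signals through WT.

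The other 2 Cd247 probe sets did not pass the filter. Probe set 1420716_at read between 3.39 and 3.99 in untreated WT and reached 5.30, 4.78 and 5.22 in WT at 24 h, against 3.33, 3.38 and 3.54 in D- at 24 h. Thus its WT arrays at 24 h lay above all D- arrays, near the floor. Probe set 1426079_at lay between 1.91 and 2.10 on every array of both lines and gave no signal to compare.

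**Figure D2:**
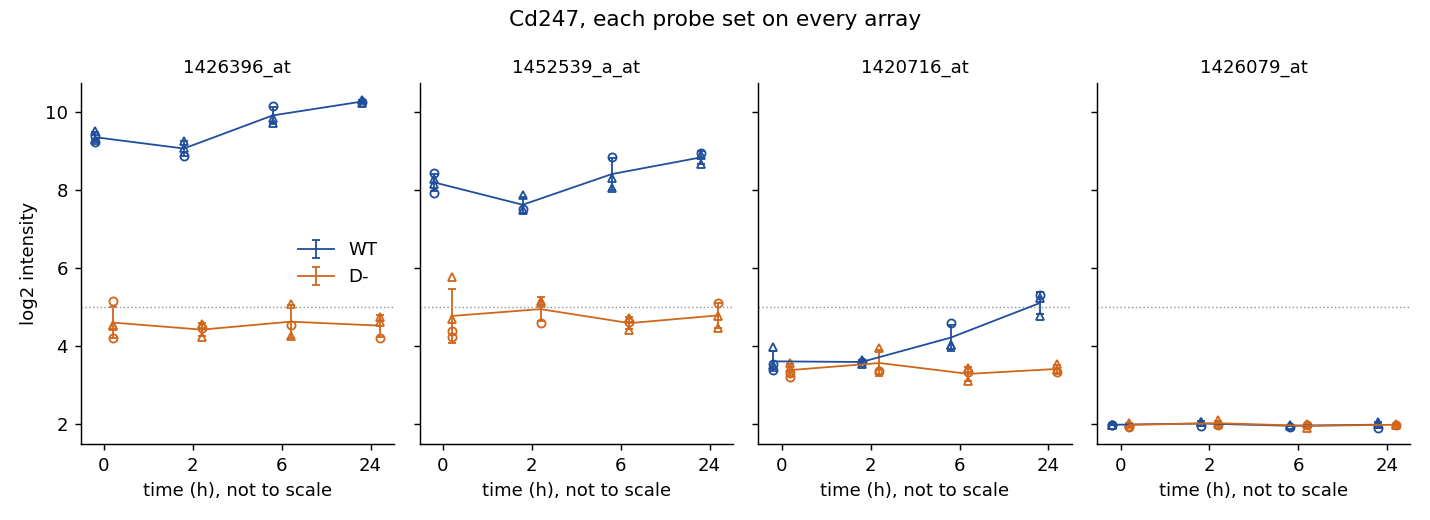
Log2 intensity (vertical axis) of the 4 Cd247 probe sets against time with 8-CPT-cAMP (0, 2, 6 and 24 h, not to scale), with WT in blue and D- in orange, 1 circle (cluster 1) or triangle (cluster 2) per array, lines through group means and bars for the SD. The 2 probe sets that passed the filter separate the lines at each time, 1420716_at does so at 24 h, and 1426079_at stays near 2.

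Trat1 encodes an adaptor that sits in the membrane beside the receptor chains. Untreated WT arrays read 9.23, 8.68, 9.51 and 9.59. Untreated D- arrays read 5.09, 6.07, 7.01 and 6.61. The groups did not overlap, although the D- arrays spread widely and the lowest belonged to cluster 1. Trat1 was 8.32-fold lower in D-, with a difference of -3.06 ± 0.52 (adjusted p = 0.000652). The difference was -3.37 within cluster 1 (adjusted p = 0.0731) and -2.74 within cluster 2 (adjusted p = 9.58e-06).

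Lcp2 encodes the scaffold on which Zap70 substrates are assembled. Its brightest probe set (1418641_at) read 9.14, 8.85, 9.51 and 9.00 in untreated WT. In untreated D- it read 8.18, 8.13, 7.76 and 7.74, below every WT array. The level was 2.25-fold lower in D-, with a difference of -1.17 ± 0.18 (adjusted p = 0.000263). The second Lcp2 probe set (1418642_at) lay between 4.67 and 6.36 on all arrays, at the floor, and averaging both probe sets shrank the difference to -0.63 (adjusted p = 0.00884). Within cluster 1 the difference was -0.84 (adjusted p = 0.122) and within cluster 2 it was -1.50 (adjusted p = 0.00126).

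Cd3d encodes one of the CD3 chains that pairs with the epsilon chain. Untreated WT arrays read 12.50, 12.46, 12.44 and 12.48, and untreated D- arrays read 12.15, 12.09, 12.18 and 12.04. The groups did not overlap, and the difference was small, -0.36 ± 0.08 (adjusted p = 0.0143). That call ended without untreated D- replicate 4 (difference -0.33, adjusted p = 0.0604) and within cluster 2 (-0.35, adjusted p = 0.0635).

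The remaining 5 genes were not called between the untreated lines. Lat differed by -0.53 ± 0.18 (adjusted p = 0.109) and Zap70 by -0.24 ± 0.08 (adjusted p = 0.0826), and in both the D- arrays lay below all WT arrays. Lat passed when only the untreated groups were fitted (adjusted p = 0.0137) and with array weights (adjusted p = 0.00972), where Zap70 passed too (adjusted p = 0.0188). Cd3g differed by -0.36 (95% interval -0.85 to 0.12), Cd3e by -0.09 (-0.74 to 0.56) and Prkcq by -0.31 (-0.87 to 0.25), and in these 3 genes the arrays of the lines overlapped. Within each cluster, however, every untreated D- array of Cd3g lay below the WT arrays (differences of -0.26 in cluster 1 and -0.47 in cluster 2, adjusted p = 0.365 and 0.0056), while Prkcq differed by 0.39 within cluster 1 and by -1.01 within cluster 2, neither called. With the array cluster, a split drawn from these same values, as a block, Cd3g, Lat and Zap70 were called (adjusted p = 0.0131, 0.0409 and 0.0438).

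**Figure D3:**
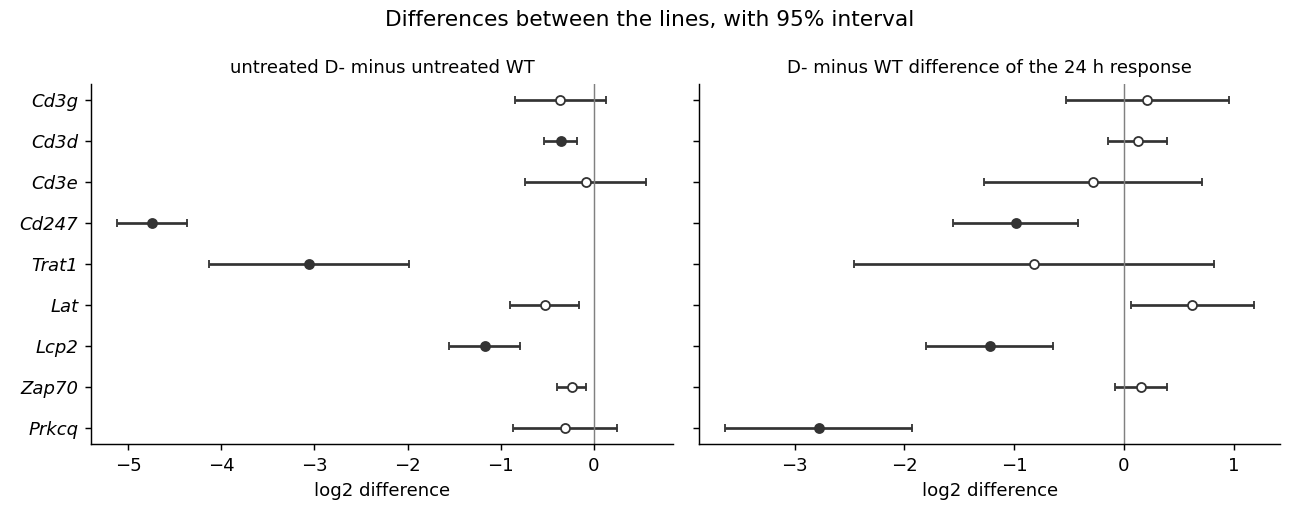
Log2 difference (horizontal axes) of each of the 9 genes between untreated D- and untreated WT (left) and between the 24 h responses of D- and WT (right), with bars for the 95% interval and filled points where the limma adjusted p was under 0.05. Cd247, at -4.74, and Trat1, at -3.06, stand lowest on the left, and Prkcq, at -2.78, on the right, where the point for Cd247 shows the WT rise alone because its D- signal lay under log2 5.

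With treatment, the number of members called higher in WT went from 2 at 2 h to 8 at 24 h. After 2 h, 3 of the 9 genes were called in WT (25.1% of all genes, 11.2% higher and 13.9% lower), with Prkcq and Zap70 higher and Lat lower. After 6 h, 5 were called (38.2% of all genes, 19.1% in each direction), with Prkcq, Zap70, Lcp2 and Cd247 higher and Lat lower. After 24 h, 8 of the 9 were called, all higher, against 53.8% of all genes called, 26.4% higher and 27.5% lower, and Lat was the exception. The median change over the 9 genes was -0.17, 0.56 and 1.05 at 2, 6 and 24 h, against -0.01, -0.01 and 0.00 over all genes.

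In D-, 4 genes were called at 2 h (22.3% of all genes, 9.05% higher and 13.2% lower), with Zap70 higher and Lcp2, Lat and Cd3d lower. At 6 h, 3 were called (31.8% of all genes, 16.2% higher and 15.6% lower), with Zap70 higher and Lat and Cd3d lower. At 24 h, 3 were called, Zap70, Cd3d and Cd3g, and all were higher, against 34.7% of all genes called, 17.1% higher and 17.6% lower. The median change over the 9 genes was -0.29, 0.11 and 0.67, against -0.02 over all genes at each time. The responses of a line share its untreated arrays across times.

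**Figure D4:**
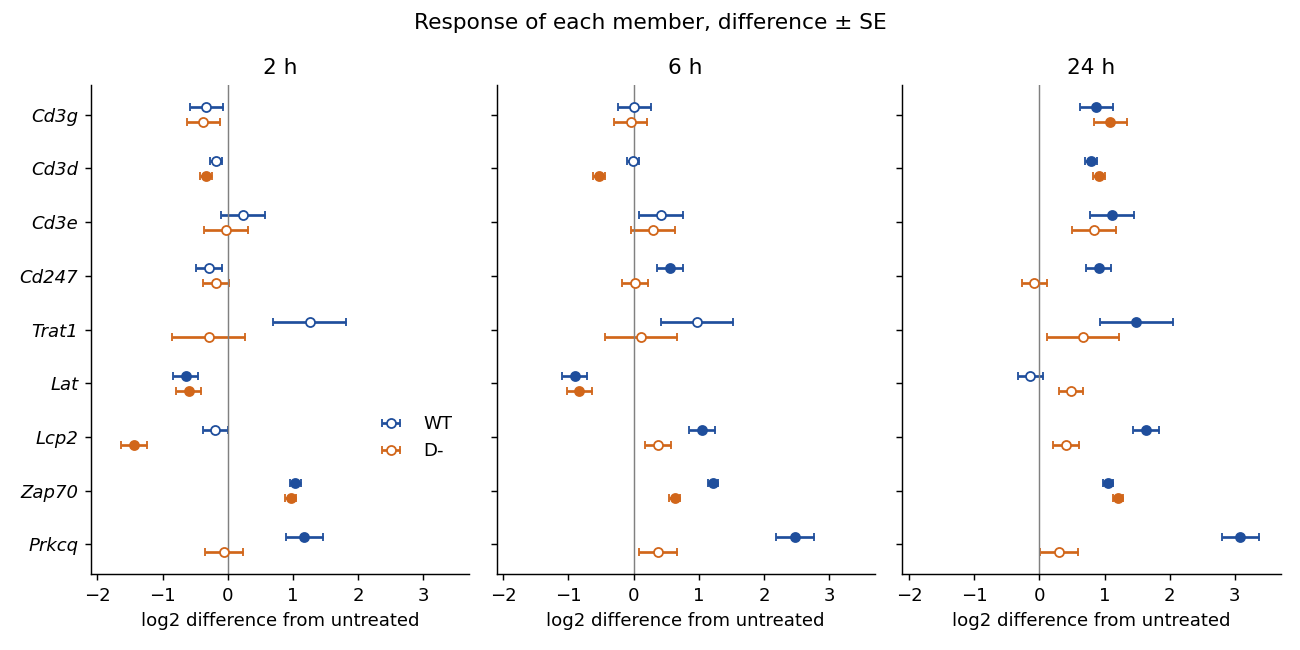
Log2 difference from the untreated arrays of the same line (horizontal axes) for each of the 9 genes at 2, 6 and 24 h of 8-CPT-cAMP, WT in blue and D- in orange, with bars for the SE and filled points where the limma adjusted p was under 0.05. The WT points of Prkcq move from 1.18 to 3.09, the D- points of Prkcq stay between -0.05 and 0.38, and the Zap70 points of both lines lie between 0.63 and 1.22.

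The 3 CD3 genes had their highest means at 24 h in both lines. Cd3d read 13.23, 13.34 and 13.20 in WT at 24 h and 13.22, 12.92 and 12.94 in D-, above every untreated array of the same line. It rose by 0.79 ± 0.09 in WT (1.72-fold, adjusted p = 3.04e-07) and by 0.91 ± 0.09 in D- (1.88-fold, adjusted p = 1.27e-07). Earlier, D- arrays had dipped: they read 11.87, 11.74 and 11.71 at 2 h and 11.66, 11.52 and 11.59 at 6 h, below all untreated D- arrays. The dip was -0.34 ± 0.09 at 2 h (adjusted p = 0.00939; -0.25 within cluster 1, adjusted p = 0.314, and -0.39 within cluster 2, adjusted p = 0.0171) and -0.53 ± 0.09 at 6 h (adjusted p = 0.000151). In WT the changes were -0.17 (95% interval -0.37 to 0.02) and -0.01 (-0.20 to 0.18). The difference of the 6 h responses, -0.52 ± 0.13, was not called (adjusted p = 0.0914).

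Cd3g encodes the gamma chain, which pairs with epsilon in the complex. In WT it read 11.75, 11.93, 12.55 and 12.60 untreated and 12.60, 13.32 and 13.33 at 24 h. In D- it read 11.57, 11.60, 12.14 and 12.08 untreated and 12.66, 13.04 and 13.09 at 24 h. The D- groups did not overlap, while the lowest WT array at 24 h, from cluster 1, lay level with the highest untreated array. Cd3g rose by 0.87 ± 0.25 in WT (adjusted p = 0.00592) and by 1.09 ± 0.25 in D- (adjusted p = 0.002), and within clusters 1 and 2 the rise was 0.76 and 0.75 in WT and 1.08 and 0.96 in D-. At 2 h Cd3g was at -0.33 in WT and -0.38 in D- without a call, and within cluster 2 both were called, at -0.47 (adjusted p = 0.0015) and -0.45 (adjusted p = 0.00253).

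Cd3e encodes the epsilon chain shared by both CD3 pairs. In WT it read 9.81, 9.78, 10.54 and 10.26 untreated and 10.64, 11.61 and 11.39 at 24 h, with no overlap. In D- it read 9.59, 9.66, 10.42 and 10.38 untreated and 10.13, 11.30 and 11.12 at 24 h, where the first array fell inside the untreated range. Cd3e rose by 1.12 ± 0.34 in WT (2.17-fold, adjusted p = 0.00798), a call that ended without WT 24 h replicate 2 (0.92, adjusted p = 0.0552). In D- the change of 0.84 ± 0.34 was not called (adjusted p = 0.0613), and it was called without D- 24 h replicate 1 (1.20, adjusted p = 0.0112) or without untreated D- replicate 3 (0.97, adjusted p = 0.045). Within cluster 2 the change was 1.10 in WT (adjusted p = 8.48e-06) and 0.81 in D- (adjusted p = 0.000225), and within cluster 1, with a lone treated array in each line, it was 0.84 and 0.50.

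For none of the CD3 genes was a difference between the 24 h responses of the lines called. That difference, D- minus WT, was 0.13 for Cd3d (95% interval -0.14 to 0.40), 0.21 for Cd3g (-0.53 to 0.96) and -0.28 for Cd3e (-1.27 to 0.71). Only for Cd3d do these intervals exclude a difference of 0.5 on the log2 scale.

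The response of Cd247 could be measured in WT and not in D-, where its means lay between 4.42 and 4.63, under the floor, at all 4 times. WT arrays read 8.87, 9.06 and 9.24 at 2 h, 10.15, 9.84 and 9.71 at 6 h, and 10.24, 10.30 and 10.22 at 24 h. All arrays at 6 and 24 h lay above the untreated ones. The rise was 0.91 ± 0.19 at 24 h (1.88-fold, adjusted p = 0.000426), and the second probe set rose by 0.64 ± 0.27 (adjusted p = 0.0495). At 6 h the rise was 0.56 ± 0.19 (adjusted p = 0.0289), and the second probe set gave 0.21 without a call (adjusted p = 0.594). The 6 h call ended without any 1 of 4 arrays: untreated WT replicate 2 (0.52, adjusted p = 0.0671) or 4 (0.53, adjusted p = 0.0582), or WT 6 h replicate 1 (0.43, adjusted p = 0.131) or 2 (0.59, adjusted p = 0.0578). It also ended with probe sets averaged (0.38, adjusted p = 0.0812), with no filter on dim signals (adjusted p = 0.0501) and within either cluster, where the rise was 0.85 in cluster 1 (adjusted p = 0.254) and 0.39 in cluster 2 (adjusted p = 0.176). Only 11 of the 20 alternatives kept the 6 h call of Cd247, against 19 of 20 for the 24 h call.

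Trat1 was called in WT at 24 h, where arrays read 10.51, 10.99 and 10.74, above all untreated WT arrays. The rise was 1.49 ± 0.56 (2.81-fold, adjusted p = 0.0296). Its call ended without untreated WT replicate 1 (1.48, adjusted p = 0.0501) or 2 (1.30, adjusted p = 0.0797), without WT 24 h replicate 2 (1.37, adjusted p = 0.0926) or 3 (1.49, adjusted p = 0.0665), and with no filter on dim signals (adjusted p = 0.0583). WT arrays at 2 h read 9.83, 10.59 and 11.10, and at 6 h 9.82, 10.72 and 10.14, again above all untreated ones. These changes, 1.26 and 0.97, were not called (adjusted p = 0.112 and 0.191). Both were called with only the groups compared (adjusted p = 0.0276 and 0.0326) and with the replicate number as a block (adjusted p = 0.00916 and 0.0252). The 2 h change was also called with array weights (adjusted p = 0.043) and with that block in only the groups compared (adjusted p = 0.0215). Apart from fits that used the clusters, no other alternative called either change. Within cluster 2 the 3 changes were 1.29, 0.88 and 1.31, and all were called (adjusted p = 0.000892, 0.00674 and 0.000234). Those p-values can be too small, because cluster 2 was picked by these same values.

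In D-, Trat1 read 4.40, 6.74 and 6.58 at 2 h, 5.08, 6.88 and 6.96 at 6 h, and 5.81, 7.57 and 7.22 at 24 h. In each of these groups replicate 1, a cluster 1 array, lay more than 1 log2 unit below the others. The changes from untreated D- were -0.29, 0.11 and 0.67, none called, with 95% intervals that all reach above 0.8.

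Lat, the membrane scaffold that Zap70 phosphorylates, moved down and back in both lines. In WT it read 12.02, 12.30, 12.20 and 12.09 untreated, 11.56, 11.65 and 11.30 at 2 h, 11.96, 10.72 and 11.07 at 6 h, and 12.28, 11.82 and 11.94 at 24 h. In D- it read 11.62, 11.62, 11.69 and 11.56 untreated, 11.14, 11.01 and 10.91 at 2 h, 10.71, 10.82 and 10.85 at 6 h, and 12.37, 12.10 and 11.86 at 24 h. At 2 and 6 h every treated array of both lines lay below the untreated arrays of its line, with WT 6 h replicate 1 only just below.

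Lat fell by 0.65 ± 0.19 at 2 h (adjusted p = 0.015) and by 0.90 ± 0.19 at 6 h (adjusted p = 0.000829) in WT. In D- it fell by 0.60 ± 0.19 (adjusted p = 0.0265) and by 0.83 ± 0.19 (adjusted p = 0.00201). The 6 h change in WT was -0.20 within cluster 1 (adjusted p = 0.486), which holds WT 6 h replicate 1, and -1.25 within cluster 2 (adjusted p = 3.53e-05). The 2 h call ended in WT without WT 2 h replicate 3 (-0.55, adjusted p = 0.0888). In D- it ended without untreated D- replicate 2 (-0.60, adjusted p = 0.0515) or 3 (-0.58, adjusted p = 0.0571), or D- 2 h replicate 2 (-0.60, adjusted p = 0.075) or 3 (-0.55, adjusted p = 0.0987). At 24 h Lat stood at -0.14 in WT (adjusted p = 0.581) and 0.49 in D- (adjusted p = 0.0549, and 0.0384 without D- 24 h replicate 3). The lines' responses differed by 0.05 at 2 h (95% interval -0.51 to 0.61) and 0.07 at 6 h (-0.49 to 0.63), neither called.

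Lcp2 fell at 2 h in D- and rose from 6 h in WT. In D- at 2 h its arrays read 6.52, 6.61 and 6.41, more than 1 log2 unit below every untreated D- array. It fell by 1.44 ± 0.20 (2.71-fold, adjusted p = 1.08e-05) and then read 8.27, 8.66 and 8.05 at 6 h and 8.16, 8.70 and 8.22 at 24 h, overlapping the untreated range. In WT the arrays read 8.60, 8.98 and 9.22 at 2 h, within or near the untreated range, with a change of -0.19 ± 0.20 (adjusted p = 0.547). They then read 9.93, 10.42 and 10.18 at 6 h and 10.39, 10.95 and 10.93 at 24 h, above all untreated WT arrays.

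The rise of Lcp2 in WT was 1.05 ± 0.20 at 6 h (2.07-fold, adjusted p = 0.000251) and 1.63 ± 0.20 at 24 h (3.10-fold, adjusted p = 4.84e-07). In D- the change was 0.38 at 6 h (95% interval -0.03 to 0.78) and 0.41 at 24 h (0.00 to 0.82), neither called. With both probe sets averaged, of which the second lay at the floor, the changes were -0.72 in D- at 2 h, 0.61 in WT at 6 h and 1.09 in WT at 24 h, and all 3 stayed called.

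Zap70 rose in both lines at each treated time. In WT it read 10.93, 10.77, 10.81 and 10.82 untreated, 11.85, 11.80 and 11.95 at 2 h, 12.06, 12.12 and 11.97 at 6 h, and 11.99, 11.79 and 11.88 at 24 h. In D- it read 10.60, 10.62, 10.66 and 10.48 untreated, 11.66, 11.54 and 11.46 at 2 h, 11.14, 11.23 and 11.29 at 6 h, and 11.83, 11.68 and 11.89 at 24 h. Treated and untreated arrays of a line did not overlap at any time, and within D- the 6 h arrays lay below those at 2 h and 24 h.

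Zap70 rose by 1.03 ± 0.08, 1.22 ± 0.08 and 1.05 ± 0.08 in WT at 2, 6 and 24 h (adjusted p = 4.69e-09, 3.98e-10 and 1.32e-09). It rose by 0.96 ± 0.08, 0.63 ± 0.08 and 1.21 ± 0.08 in D- (adjusted p = 1.35e-08, 5.87e-06 and 4.32e-10). Its first promoter is the one printed above with the full TGACGTCA, and Zap70 promoters 2 and 3 held neither that nor TGACG. The part of this element in the rise was not tested. The second, dimmer probe set (1439749_at) lay between 6.20 and 7.23 on all arrays and was called in WT at 2 h, by 0.53 (adjusted p = 0.0365), and at 24 h, by 0.49 (adjusted p = 0.0267), but not in D- at any time. With both probe sets averaged, the 6 h rise was 0.73 in WT and 0.35 in D-, and the 24 h rise in D- was 0.68.

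Prkcq encodes protein kinase C theta, the isoform that acts at the contact between a T cell and its target. In WT it read 7.63, 7.45, 8.45 and 7.96 untreated, 8.77, 8.92 and 9.45 at 2 h, 10.13, 10.49 and 10.42 at 6 h, and 10.49, 11.47 and 10.91 at 24 h. In D- it read 8.16, 7.70, 6.78 and 7.62 untreated, 7.80, 7.18 and 7.54 at 2 h, 8.37, 7.95 and 7.51 at 6 h, and 7.80, 7.91 and 7.90 at 24 h. All treated WT arrays lay above the untreated ones, and D- arrays overlapped the untreated range at each time.

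In WT, Prkcq rose 2.26-fold at 2 h (1.18 ± 0.29, adjusted p = 0.0043), 5.55-fold at 6 h (2.47 ± 0.29, adjusted p = 1.08e-06) and 8.49-fold at 24 h (3.09 ± 0.29, adjusted p = 1.65e-08). In D- the changes were -0.05, 0.38 and 0.30, with 95% intervals of -0.66 to 0.55, -0.22 to 0.98 and -0.30 to 0.91, and none was called. Among the 9 genes Prkcq had the largest WT change at 6 and 24 h.

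The test of the difference between the 2 responses (D- minus WT) called no member at 2 h, where 0.242% of all genes were called, 0.0538% higher and 0.188% lower in D-. Lcp2 and Prkcq had the lowest unadjusted p of the 9 members in that test. For Lcp2 that difference was -1.25 ± 0.28 (adjusted p = 0.0632), and it was called without untreated WT replicate 3 (-1.38, adjusted p = 0.0409) or WT 2 h replicate 1 (-1.42, adjusted p = 0.0319). It was also called with array weights (-1.26, adjusted p = 0.0167) and with the array cluster (adjusted p = 0.0315) or the replicate number (adjusted p = 0.0385) as a block. All other alternatives run left it uncalled. For Prkcq it was -1.23 ± 0.41 (adjusted p = 0.447).

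At 6 h, 2 members were called, both with the smaller rise in D-, against 0.592% of all genes, 0.148% higher and 0.444% lower. Prkcq differed by -2.09 ± 0.41 (adjusted p = 0.0163). The Prkcq call ended without D- 6 h replicate 3 (-1.87, adjusted p = 0.076), WT 6 h replicate 2 (-2.02, adjusted p = 0.0649) or WT 6 h replicate 3 (-2.05, adjusted p = 0.0516), and with only the 4 groups compared (adjusted p = 0.0596). Within cluster 1 it was -2.15 (adjusted p = 0.435) and within cluster 2 -1.72 (adjusted p = 0.0634). Zap70 differed by -0.59 ± 0.12 (adjusted p = 0.0163). The Zap70 call ended without D- 6 h replicate 1 (-0.55, adjusted p = 0.0582) or WT 6 h replicate 2 (-0.56, adjusted p = 0.0743), and with both probe sets averaged (-0.38, adjusted p = 0.419). Within cluster 1 it was -0.68 (adjusted p = 0.707) and within cluster 2 -0.54 (adjusted p = 0.136).

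At 24 h, 2 members with signal in both lines were called, both lower in D-, against 12.3% of all genes, 7.32% higher and 5% lower. Prkcq differed by -2.78 ± 0.41 (adjusted p = 0.000119) and Lcp2 by -1.22 ± 0.28 (adjusted p = 0.00498), and neither call ended when any 1 array was left out. Within cluster 2 the differences were -2.28 (adjusted p = 0.00243) for Prkcq and -0.98 (adjusted p = 0.0499) for Lcp2, and within cluster 1 -3.08 (adjusted p = 0.0839) and -1.38 (adjusted p = 0.11). The fit also gave Cd247 a difference of -0.99 ± 0.27 (adjusted p = 0.0206), which restates its WT rise. With D- means under the floor at every time, a difference between the responses of Cd247 could not be measured. Within clusters 1 and 2 that value was -1.41 and -0.71, and neither was called. For Zap70 the 24 h difference was 0.16 (95% interval -0.09 to 0.40), with no call.

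Seen by group, Cd247, Trat1, Lcp2 and Prkcq had the widest ranges of the 8 group means, 5.83, 4.84, 4.24 and 3.45 on the log2 scale, each from a D- group at its lowest to WT at 24 h at its highest. For Cd247, Trat1 and Lcp2 all WT means stood above all D- means. For Prkcq the order was WT at 24, 6 and 2 h (10.96 ± 0.50, 10.34 ± 0.19 and 9.05 ± 0.36, SD, n = 3 each), of which the arrays at 24 and 6 h met at 10.49, then a run from 7.94 to 7.51 in which untreated WT and the 4 D- groups overlapped. For Zap70 the order began with WT at 6, 24 and 2 h and D- at 24 h (12.05, 11.88, 11.86 and 11.80), and ended with the untreated groups. Of the first 4, the last 3 overlapped, and the WT arrays at 6 h overlapped those at 24 h.

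The genes whose 8 group means ran most like those of Cd247, among 2897 genes with means that span at least 1 log2 unit, were Dock2 (Pearson r = 0.995), an exchange factor for Rac in leukocytes, Pdlim2 (0.988) and Rpusd4 (0.982). For Trat1 they were Dock2 again (0.986), Shisa5 (0.983) and Tcf7l1 (0.981). Dock2 had means between 8.24 and 9.34 in WT and between 3.47 and 4.22 in D-, under the floor. Shisa5 went from 9.43 to 11.31 in WT and from 6.54 to 7.23 in D- between 0 and 24 h. These r values describe 8 group means, 4 per line, whose points share the line and the untreated level.

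A wider list of pathway genes was drawn from textbook knowledge with earlier results of these data known, and 62 were tested. Its shares describe this list and are not an unbiased test of the pathway. In WT, 16 were called higher (25.8%, against 11.2% of all genes) and 8 lower (12.9% against 13.9%) at 2 h. At 6 h the WT counts were 21 higher (33.9% against 19.1%) and 5 lower (8.06% against 19.1%), and at 24 h 35 higher (56.5% against 26.4%) and 2 lower (3.23% against 27.5%). In D-, 9 were called higher (14.5% against 9.05%) and 10 lower (16.1% against 13.2%) at 2 h, shares near those of all genes. Later D- counts were 17 higher (27.4% against 16.2%) and 6 lower (9.68% against 15.6%) at 6 h, and 27 higher (43.5% against 17.1%) and 3 lower (4.84% against 17.6%) at 24 h. The median change of the list at 24 h was 0.51 in WT and 0.39 in D-, against 0.00 and -0.02 over all genes.

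Of 18 inhibitors of proximal signalling tested, 11 were called higher in WT at 24 h (61.1%, against 26.4% of all genes), a share near that of the whole list (56.5%). In D- at 24 h, 8 were called higher (44.4%, against 17.1% of all genes and 43.5% of the list). For the difference of the 24 h responses, 6 of the 18 were called lower in D- (33.3%, against 5% of all genes) and 0 higher. Ptpn22, a phosphatase that removes the activating phosphates from Lck and Zap70, rose by 3.59 ± 0.17, 3.81 ± 0.17 and 4.18 ± 0.17 in WT (adjusted p = 1.81e-12, 7.47e-13 and 7.96e-14). In D- it rose by 3.18 ± 0.17, 3.01 ± 0.17 and 3.04 ± 0.17 (adjusted p = 1.34e-11, 3.21e-11 and 2.14e-11). Its level went from 8.36 to 12.54 in WT and from 8.58 to 11.63 in D- between 0 and 24 h. Sla2, an adaptor that lowers receptor levels, rose by 1.96 ± 0.14 in WT and 1.89 ± 0.14 in D- at 2 h. Sla, its relative, fell by 1.76 ± 0.33 in WT at 2 h. In D- at 2 h Sla fell by at least 1.01.

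Among kinases and adaptors, Txk, a Tec family kinase, had untreated means of 4.85 in WT and 4.84 in D-, under the floor. It rose by at least 3.66, 4.40 and 5.09 in WT at 2, 6 and 24 h (adjusted p = 5.37e-05, 4.35e-06 and 2.26e-07). In D- it rose by at least 2.21 at 6 h and 2.70 at 24 h (adjusted p = 0.00425 and 0.000756). Fyb, an adaptor that binds the Lcp2 protein, rose by 1.81 ± 0.24, 2.14 ± 0.24 and 2.69 ± 0.24 in WT and by 1.77 ± 0.24, 2.32 ± 0.24 and 2.74 ± 0.24 in D-.

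No alpha, beta, gamma or delta chain of the receptor was among the 62 genes tested. Among coreceptors and other surface receptors, Cd2 and Cd8b1 were higher in untreated D- than in untreated WT, by 3.74 ± 0.27 (adjusted p = 8.3e-09) and 1.05 ± 0.22 (adjusted p = 0.00414). They were the only ones of the 62 genes called higher there (3.23%, against 1.91% of all genes), and 6 were called lower (9.68% against 3.09%). The lower ones included Sh2d2a, an adaptor of activated T cells, at -2.38 ± 0.32 (adjusted p = 5.73e-05), and Dgka, which removes diacylglycerol, at -1.21 ± 0.18 (adjusted p = 0.00019). Cd2 fell by 1.62 ± 0.30 in WT (adjusted p = 0.000283) and by 2.14 ± 0.30 in D- (adjusted p = 1.26e-05) at 2 h.

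The difference of the 24 h responses was called for 12 of the 62 genes (19.4%, against 12.3% of all genes), 9 lower in D- (14.5% against 5%) and 3 higher (4.84% against 7.32%). The costimulatory receptor Cd28 had the largest, -2.80 ± 0.46 (adjusted p = 0.000306), and its group means ran from 9.34 to 11.88. Dgka differed by -1.94 ± 0.28 (adjusted p = 9.25e-05), and by -1.71 ± 0.28 at 6 h (adjusted p = 0.00284), where it was the single gene of the list called. Tec differed by -1.42 ± 0.30 (adjusted p = 0.00273) and Dok2, an inhibitory adaptor, by -1.37 ± 0.37 (adjusted p = 0.0175). The 3 higher in D- were Grb2 at 0.85 ± 0.20 (adjusted p = 0.00651), Map4k1 at 0.72 ± 0.15 (adjusted p = 0.00302) and Syk. The fit gave Syk 1.32 ± 0.36 (adjusted p = 0.0187), which restates its D- rise. Syk means lay under the floor in WT (4.22 untreated and 4.37 at 24 h) and in untreated D- (4.21), against 5.69 in D- at 24 h. So Syk rose by at least 0.69 in D-. A difference between its responses could not be measured, although Syk is counted among the 12.

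**Figure D5:**
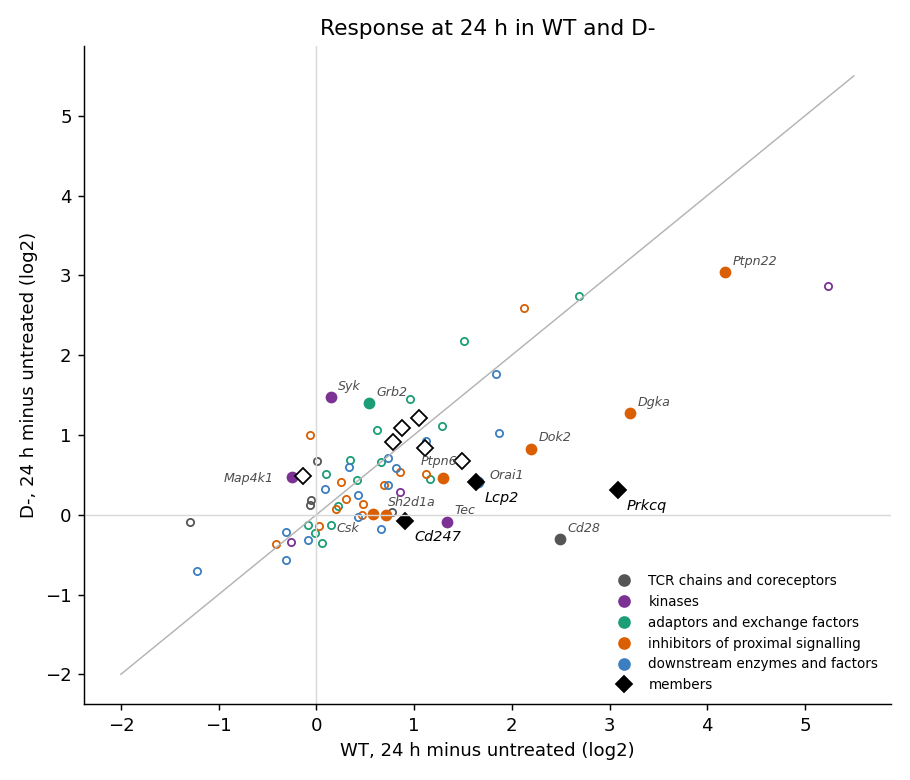
Log2 change from untreated at 24 h in WT (horizontal axis) and D- (vertical axis) for the 9 members (diamonds) and the 62 wider pathway genes (circles, coloured by list), with filled symbols where the limma adjusted p of the difference between the responses was under 0.05. Prkcq (3.09 in WT, 0.30 in D-) and Cd28 lie far below the diagonal of equal change, while Zap70 (1.05 and 1.21) and Cd3d (0.79 and 0.91) lie near it. The filled point for Cd247 rests on its WT rise alone, and that for Syk on its D- rise alone.

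Of the markers of other cell types, Itgam and Pdgfrb had means over log2 5 in some treated groups and under it in both untreated groups. The myeloid marker Itgam had means of 4.05 in untreated WT and 6.24 in WT at 24 h, and 4.42 and 5.84 in D-. The summed intensity of the 8 myeloid markers ranged from 152 to 175 in untreated WT and from 173 to 283 in WT at 24 h, and from 149.7 to 181 and from 164 to 237 in D-, while Lyz2, Mpo, Cebpa and Cd14 stayed between 1.54 and 3.53. The stromal marker Pdgfrb had a mean of 6.42 in WT at 6 h and under 5 in all other groups, and the summed intensity of the 4 stromal markers was 104 to 157 in WT at 6 h against 45.4 to 49.2 in untreated WT. The summed intensity of the 10 T lineage markers was 15892 to 19144 in untreated WT, 7958 to 8737 at 2 h, 6947 to 9155 at 6 h and 11080 to 12268 at 24 h, and 21430 to 24744, 8186 to 11836, 10986 to 12490 and 20125 to 22869 in D-. The part of these markers in the changes of the receptor genes was not tested.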

How the data were processed

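Per the submitters' processing notes, the authors summarised probe sets with GCRMA, and the deposited values are linear intensity. The version of GCRMA is not given in the sources used here, nor is it stated that WT and D- arrays were normalized together. Because GCRMA equalises the arrays, it hides any shift common to most genes. Log2 of the deposited intensity was taken, with no pseudocount. Titles of treated WT samples say untreated, whereas description and source name call them treated, the label followed here. Of 22690 probe sets, 64 were controls. Probe sets at log2 5 or above on at least 3 arrays were tested with limma 3.58.1 (lmFit, eBayes) in R 4.3.3, over 26 arrays with 8 group means (18 residual and 3.34 prior degrees of freedom), 10 contrasts and Benjamini-Hochberg adjustment within each.

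The members, and the pathway and marker lists, were chosen with earlier results of these data known. Named were all members and 3 genes of like pattern for the 2 members of widest range. Pathway genes were picked per comparison, up to 4 called genes with the largest rise and up to 4 with the largest fall, and only part of these is described. Falls left out include Ppp3cb at 6 and 24 h (-0.62 and -1.23 in WT, -0.66 and -0.71 in D-) and Cd8b1 at 2 h (-1.52 in WT, -1.41 in D-). Others left out include falls of Akt1, Ppp3r1, Rcan1 and Wipf1, and rises of Grap2 and Itpkb. On simulated data the fit recovered 52%, 89% and 99.5% of log2 changes of 0.5, 1 and 2 between untreated lines, and 16.5%, 65.5% and 97% of such changes in the 24 h response difference. Unchanged probe sets gave 33 and 25 false calls in these comparisons. The simulated noise was independent between arrays, without the 2 clusters, so the rates may not hold for genes that follow the clusters. Alternatives were eBayes with trend, array weights, the groups compared alone, quantile normalization, centring, filters, mean of probe sets, the replicate number or array cluster as a block, single clusters and each array left out. Figures were drawn with matplotlib 3.10.9.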

Additional observations from a re-analysis of the deposited data

Results flagged for a closer look

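For 4 values the responses of the lines differed by limma's test of the difference itself (D- minus WT, 3 treated and 4 untreated arrays per line). For Prkcq the difference was -2.09 at 6 h and -2.78 at 24 h, where its WT arrays lay between 10.13 and 11.47 and its D- arrays between 7.51 and 8.37. For Zap70 at 6 h it was -0.59, with both lines higher than untreated. For Lcp2 at 24 h it was -1.22. The same test gave -0.99 for Cd247 at 24 h, which shows its WT rise alone: D- means of Cd247 lay under log2 5 at every time, so its responses could not be compared. A check for single arrays far from the others, in the untreated groups of 4, found 0 in the 18 gene and line combinations checked.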

How the results depend on the processing

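Of 35 called values of members, all 35 kept their direction in the alternatives run, 15 stayed past the threshold in all of them, and 24 did so in all but the fits to a single cluster. The number of the 9 members called moved as follows, with the limit that the clusters were drawn from these same values. With the array cluster as a block it was 5 (from 3) in WT at 2 h, 5 (from 3) in D- at 24 h, 7 (from 4) between untreated lines and 1 (from 0) for the response difference at 2 h. With cluster 1 alone, which has 1 treated array per group and 2 residual degrees of freedom, it was 1 in WT at 2 h, 3 in WT at 6 h, 2 in D- at 2 h, 0 in D- at 6 h, 1 between untreated lines, and 0 for the differences between 6 h or 24 h responses. With cluster 2 alone it was 5 in WT at 2 h, 5 in D- at 24 h and 0 for the response difference at 6 h. There Cd3g in WT at 6 h turned from 0.01 to -0.31 (adjusted p = 0.013). Array weights gave 6 in D- at 24 h and 1 for the response difference at 2 h. With only the groups compared, or with probe sets averaged, the difference of response at 6 h had 1 call in place of 2.

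Whether arrays with the same replicate number pair depends on the groups. The correlation of their deviations ran from -0.47 to 0.60 between treated and untreated groups of a line, with no comparison in which every pair was over 0.1. Between D- and WT it ran from 0.04 to 0.31 untreated (5 of 8 arrays correlated best with their own number), 0.05 to 0.32 at 2 h (3 of 6), 0.15 to 0.34 at 6 h (3 of 6) and 0.29 to 0.50 at 24 h (6 of 6). So every pair was over 0.1 between the lines at 6 and 24 h, a hint from the data that the labels do not explain. The replicate block gave 1 call for the difference of response at 2 h, 7 in WT at 6 h and 4 between untreated lines. The replicate block fitted to only the groups compared, chosen after seeing the data, gave 3 in WT at 6 h and 0 for the response difference at 6 h, where Prkcq had adjusted p = 0.117 and Zap70 0.0888, while the block over all groups kept both calls (0.027 and 0.0139). At 24 h both blocks kept the calls of Prkcq and Lcp2, and the value of Cd247, counted among the calls here although its D- signal is under the floor, had 0.0507 with only the groups compared.

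Leaving out each array in turn gave 2 to 3 calls, 4 to 5 and 6 to 8 in WT at 2, 6 and 24 h, and 3 to 4, 3 throughout and 3 to 4 in D-. It gave 3 to 4 between untreated lines, and 0 to 1, 0 to 2 and 2 to 3 for the difference of response. The cause of these changes was not tested. The number of arrays limits the precision, and signals under log2 5 give bounds only.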
